A study of Chlorocebus aethiops with 3 samples.

Results

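Molecular chaperones bind unfolded proteins and help them fold. The members examined were 41 RefSeq accessions of cytosolic and mitochondrial chaperones: the HSP70, HSP110 and HSP90 families with their cochaperones, HSP60 and HSP10 of the mitochondrial matrix, DNAJ proteins, the small heat shock protein HSPB1, the subunits of the CCT chaperonin and of prefoldin, and HSF1. They were chosen by accession. Probe spots carrying a member's accession were found for 39 of the 41, and NM_005346 (HSPA1B) and NM_199440 (a transcript of HSPD1) had none. Each accession was represented by its probe with the highest mean log2 signal of both channels. All 39 passed the filter on dim probes, among 14528 accessions that did so of 32695 on the array. The 39 stand for 37 genes, because HSP90AA1 and DNAJB6 each have a pair of accessions. The scanner tables give accessions and no gene symbols. The symbols used here were assigned from general knowledge of RefSeq and could not be checked against a table.

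The RNA came from heavy polysomes of COS-7 cells, an established line from the kidney of the African green monkey, in 3 biological replicates. Knockdown cells received siRNAs against the coding region of human RNA helicase A (RHA, encoded by DHX9) at 0.5 nM, and control cells received scrambled siRNA, each transfected, split and transfected again. Heavy fractions of sucrose gradients of 15% to 45% were pooled, and each array set knockdown RNA in Cy5 against control RNA in Cy3, with 0 arrays of swapped dyes. A log2 ratio here is the loess-normalized signal of knockdown over control, so that 0 means no difference from other RNAs of like brightness. It moves with the abundance of an mRNA as well as with its ribosome load, which cannot be told apart here. A difference in RNA amount shared by all RNAs is removed by the normalization, whether from fewer cells or from less RNA per cell, and cannot be seen. Control and knockdown log2 signals given below were computed from the normalized ratio and the mean log2 signal of both channels. Their order within an array therefore repeats the sign of the ratio and is no separate evidence.

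In the cytosol, HSP70 binds nascent and unfolded chains with the aid of DNAJ proteins, and passes some clients to HSP90. Prefoldin carries unfolded actin and tubulin to CCT, a ring-shaped ATP-driven chaperonin. HSP60 and its lid HSP10 form the corresponding chamber in mitochondria. HSF1 is the transcription factor that induces many of these genes under heat and other protein-damaging stress.

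The message of the siRNA target lay below 0 on every array and was not called. On replicates 1, 2 and 3 the log2 ratios of DHX9 were -0.041, -0.20 and -0.60, averaging -0.28 ± 0.29 (SD, n = 3). The limma adjusted p was 0.221. Its other tested probe had -0.12, -0.12 and -0.76, a mean of -0.33 that was not called. On both probes the drop was largest on replicate 3. The groups are named by their labels. Between 37.5% and 50.7% of the 41000 probes were well above background in control RNA and between 45.5% and 53.1% in knockdown RNA, and replicate 3 was the array with the most. At least 1 probe each of VIM, KRT8 and KRT18, expressed by kidney lines, was detected above background on all 3 arrays in both channels. No probe of PTPRC or HBB, markers of blood cells, was so on any array. At least 1 probe each of GFAP and DES, markers of glia and muscle, was above background in both channels of all 3 arrays, and that of the liver marker ALB in 2 control and 3 knockdown channels. The array is of human design, and how well its probes match monkey transcripts was not tested.

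Chaperone mRNAs moved in both directions. Of the 39 accessions, 4 rose and 8 fell at the limma threshold, an adjusted p below 0.05, where 9.89% of all accessions tested rose and 9.33% fell. The 4 that rose were HSF1, CCT2, HSPD1 and PFDN1. The 8 that fell were both accessions of HSP90AA1, and PFDN5, HSPA14, STUB1, ST13, CCT4 and DNAJB1, of which ST13, CCT4 and DNAJB1 turned above 0 when arrays were centred on their median. That centring, in place of loess, gave 11 risen and 0 fallen members, beside 2766 risen and 45 fallen of all 14528 accessions. Under it 19.3% of all accessions were called in either direction. Counted by gene, 11 of 37 were called. The 12 called make 30.8% of the members, against 19.2% of all accessions called in either direction. The members' probes were bright, with a median brightness at percentile 85.9 of the accessions tested. Among the 23 members above percentile 80, 8 or 34.8% were called, where 37.4% of all accessions above it were called, so the members' share lay near that of similarly bright probes. The median log2 ratio of the members was 0.019, beside 0.010 over all accessions. By at least 2-fold, 2 members were called, both HSP90AA1, where 4.99% of all accessions were.

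**Figure D1:**
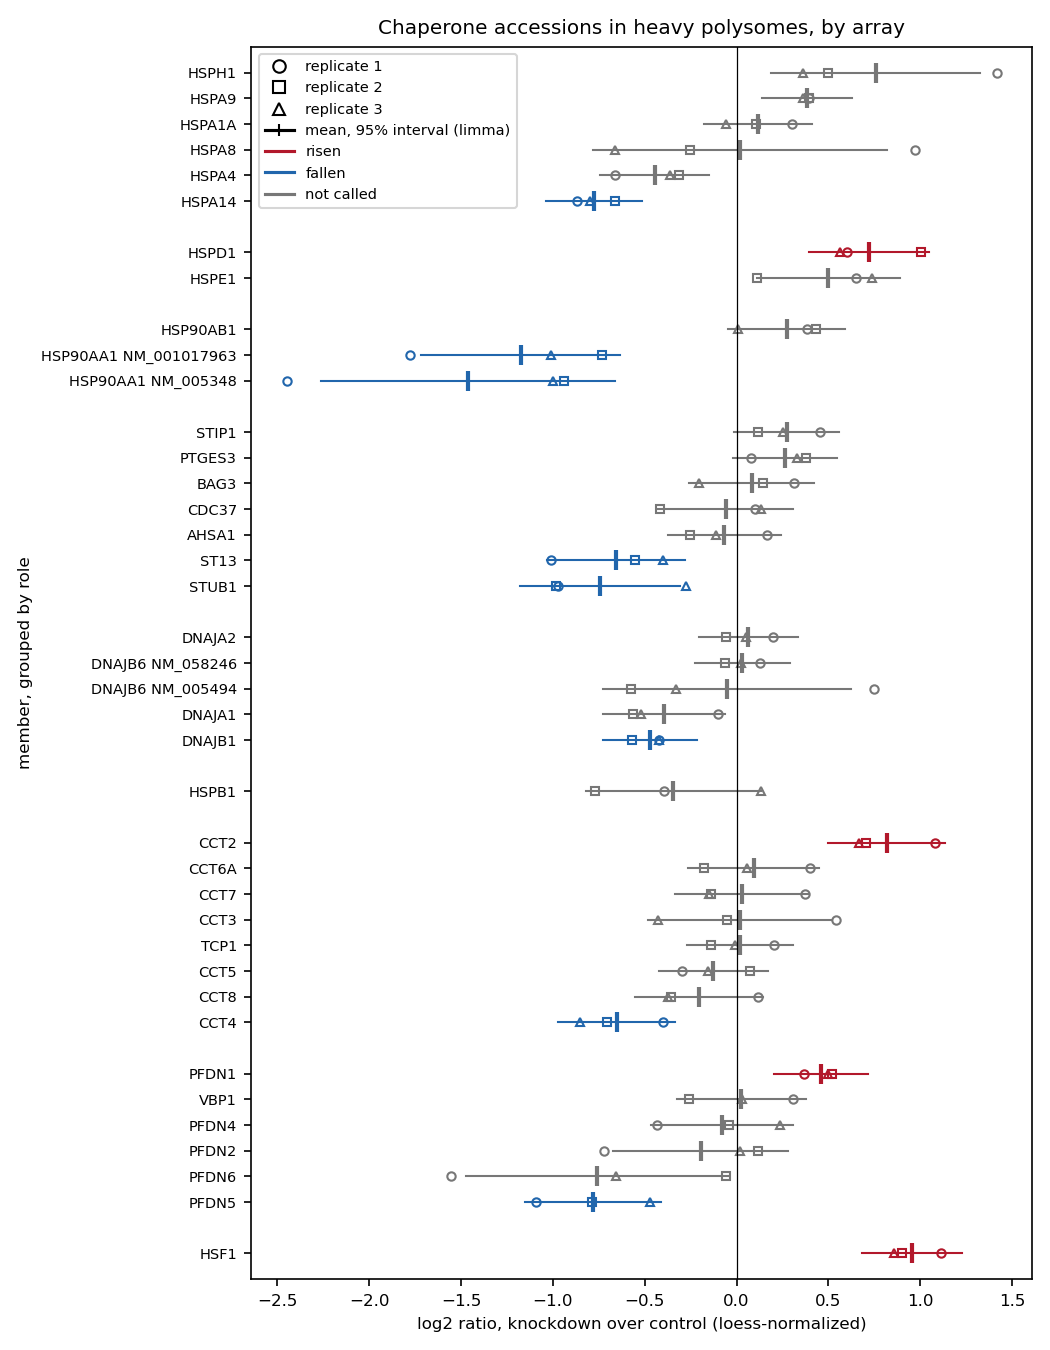
Log2 ratios of knockdown over control (horizontal axis) of the 39 members, grouped by role; open symbols are replicates 1 to 3, vertical ticks the means, horizontal lines the 95% intervals of limma, and colours the calls. Both HSP90AA1 accessions lie lowest, with means of -1.17 and -1.46, and HSF1 highest at 0.96.

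**Figure D2:**
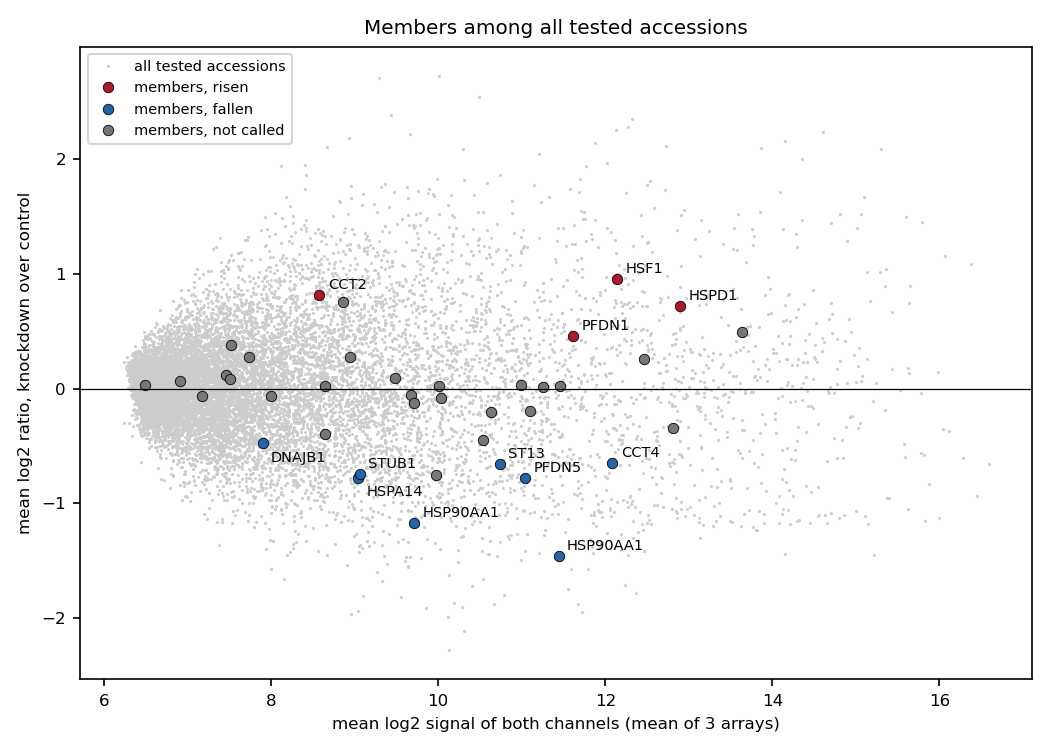
Mean log2 ratio (vertical axis) against mean log2 signal of both channels (horizontal axis) for all 14528 accessions tested (grey dots) and the 39 members (large points, coloured by call, the called ones named). With loess, called members lie on both sides of 0, and most members lie in the brighter part of the range.

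HSF1, the transcription factor at the head of the heat shock response, had the largest rise of the members. Its control log2 signals were 11.06, 11.13 and 12.81 on replicates 1, 2 and 3, and its knockdown signals were 12.18, 12.03 and 13.67. Knockdown exceeded control within every array, while the signals of both groups overlapped across arrays. Replicate 3 had the highest signals in both channels, as for all 12 called accessions. The log2 ratios of 1.11, 0.90 and 0.86 gave a mean of 0.96 ± 0.14 (SD, n = 3), or 1.94-fold, with a 95% interval of 0.68 to 1.23 and a limma adjusted p of 0.0148. A single probe carries its accession, NM_005526, so no other probe could be set beside it. Of 17 alternative ways of processing, 6 recomputed this ratio in a way that could turn its sign, and it lay between 0.98 and 1.79 in those. HSF1 was not called without replicate 2, where its mean was 0.98 and 0 of all accessions were called.

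HSP90AA1, the stress-inducible form of cytosolic HSP90, had the largest fall, and it fell under both of its accessions. For NM_005348 the control log2 signals were 12.48, 10.95 and 13.09 on replicates 1, 2 and 3, and the knockdown signals were 10.03, 10.01 and 12.09. Knockdown was lower on every array, and the drop was steepest on replicate 1. The log2 ratios of -2.45, -0.94 and -1.001 averaged -1.46 ± 0.85 (SD, n = 3), that is 0.363 times control, with a limma adjusted p of 0.0348. The design prints this probe as 10 spots, whose log2 ratios ran from -2.52 to -2.34 on replicate 1, from -1.02 to -0.87 on replicate 2 and from -1.05 to -0.91 on replicate 3. The spread between spots of an array was thus far narrower than that between arrays.

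For NM_001017963, a longer transcript of the same gene, control log2 signals were 10.35, 9.15 and 11.39 and knockdown signals 8.57, 8.42 and 10.38. Its log2 ratios of -1.78, -0.73 and -1.01 averaged -1.17 ± 0.54 (SD, n = 3), that is 0.443 times control, with a limma adjusted p of 0.0262. Both further probes of these accessions lay nearer to 0. Probe A_32_P199252 had -0.99, -0.34 and -0.66, a mean of -0.66 that was called, and A_23_P162866 had -0.66, -0.29 and -0.39, a mean of -0.45 that was not called. All 4 probes lay below 0 on 3 of 3 arrays. They belong to 1 gene and are not replicates of it. With no filter on dim probes, which raised the accessions tested to 32695, the adjusted p values were 0.104 and 0.0690, and with median centring the means were -0.68 and -0.50, with adjusted p of 0.279 and 0.284.

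The constitutive HSP90AB1, also cytosolic, was not called. Its brightest probe had log2 ratios of 0.38, 0.43 and 0.0065, which averaged 0.27 ± 0.23 (SD, n = 3) with a 95% interval of -0.048 to 0.59. Its other probes had means of -0.23 and -0.050, so the 3 probes lay on both sides of 0. Set against NM_005348 within each array, HSP90AB1 was higher by 2.83, 1.37 and 1.01 on the log2 ratio scale, a mean difference of 1.74 ± 0.96 (SD, n = 3). Against NM_001017963 the differences were 2.16, 1.16 and 1.02. With the mean of tested probes the gaps were smaller, with HSP90AB1 at -0.0042, NM_005348 at -0.96 and NM_001017963 at -0.92. Both brightest-probe differences had an exact sign-flip p of 0.25, 2-sided, the smallest that 3 arrays allow. It was 0.25 after Benjamini-Hochberg adjustment over the 4 pairs of members compared in this way, which were chosen after their values were seen.

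Among the cochaperones that serve HSP70 and HSP90, 2 of 7 fell and 0 rose with loess, STUB1 and ST13. STUB1, the ubiquitin ligase CHIP that marks clients of HSP70 and HSP90 for degradation, had control log2 signals of 8.67, 8.95 and 10.67 and knockdown signals of 7.70, 7.96 and 10.39. The fall was alike on replicates 1 and 2 and smaller on replicate 3, with log2 ratios of -0.97, -0.99 and -0.28. The mean was -0.74 ± 0.40 (SD, n = 3), that is 0.597 times control, with a limma adjusted p of 0.0411. With median centring it was -0.11, with an adjusted p of 0.638.

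ST13, known as HIP, stabilizes HSP70 in its client-bound state. Its control log2 signals were 10.77, 10.26 and 12.18 and its knockdown signals 9.76, 9.71 and 11.78. Its log2 ratios of -1.01, -0.55 and -0.40 averaged -0.66 ± 0.32 (SD, n = 3), with a limma adjusted p of 0.0386, a fall relative to the loess curve that turned to 0.095 with median centring. The array holds 8 probes with this accession, 7 of them tested, and they disagreed. The next brightest, A_32_P156892, had -1.11, -0.51 and -0.23, a mean of -0.62 that was not called, whereas A_32_P44657 had 0.86, -0.093 and 0.73, a mean of 0.50, and A_32_P44512 0.80, -0.17 and 0.73, a mean of 0.45. Of the 7, 3 had means below 0 and 4 above. Averaging them gave -0.035 with an adjusted p of 0.850, so the ST13 call rests on the brightest probe. Which of these probes also match related sequences was not tested.

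With loess, the other 5 cochaperones were not called. Their means ran from -0.066 for AHSA1, an activator of the HSP90 ATPase, to 0.27 for STIP1, the adaptor HOP linking HSP70 to HSP90. AHSA1 had log2 ratios of 0.16, -0.25 and -0.11, with an interval of -0.37 to 0.24. STIP1 had 0.45, 0.12 and 0.25, with an interval of -0.015 to 0.56. The rest were PTGES3 (p23, a cochaperone of ATP-bound HSP90), the kinase-loading factor CDC37, and BAG3, a nucleotide exchange factor of HSP70. By their brightest probes, STIP1 and PTGES3 lay above 0 on 3 of 3 arrays, while AHSA1, CDC37 and BAG3 changed sign between arrays. The second STIP1 probe had 0.27, -0.016 and -0.080, and the other tested PTGES3 probes averaged -0.12 and -0.018. With median centring, STIP1 was called as risen at 0.76 (limma adjusted p of 0.0435) and PTGES3 at 1.12 (0.0339). With centring on tested probes PTGES3 was called at 0.80, with a limma adjusted p of 0.0168.

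**Figure D3:**
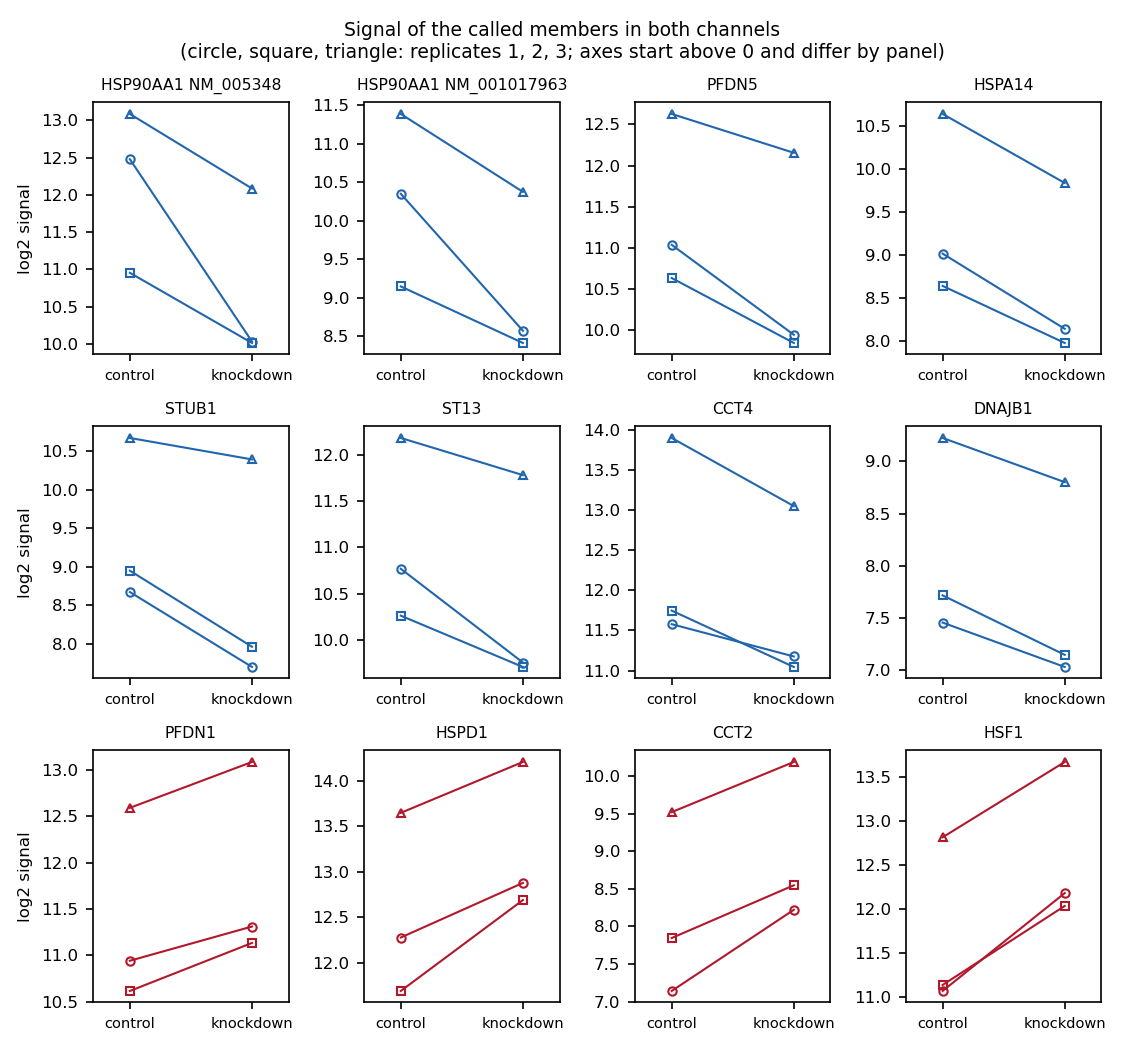
Log2 signal (vertical axis) in the control and knockdown channels (horizontal axis) of the 12 called accessions, 1 panel each; lines join the channels of an array. The signals were computed from the loess-normalized ratio and the mean signal, so each slope repeats the sign of its ratio. Every line of a fallen member slopes down and every line of a risen member slopes up. For NM_005348 the line falls from 12.48 to 10.03 on replicate 1. With median centring the means of CCT4, ST13 and DNAJB1 turned above 0.

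Of the 6 HSP70 and HSP110 accessions tested, 1 fell and 0 rose. HSPA14, an atypical HSP70 that forms a ribosome-associated complex with a J-domain protein and acts on nascent chains, had control log2 signals of 9.02, 8.64 and 10.63 and knockdown signals of 8.15, 7.98 and 9.83. The drop was of like size on the 3 arrays. Its log2 ratios of -0.87, -0.66 and -0.80 averaged -0.78 ± 0.11 (SD, n = 3), that is 0.584 times control, with a limma adjusted p of 0.0165. HSPA14 is measured by a single probe. With median centring its mean was -0.16 with an adjusted p of 0.624, and with centring on tested probes -0.47 with an adjusted p of 0.0604.

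Among the HSP70 and HSP110 accessions not called, HSPH1 had the highest mean and HSPA4 the lowest. Both belong to the HSP110 family, which exchanges nucleotide on HSP70. HSPH1 had log2 ratios of 1.41, 0.50 and 0.36, which averaged 0.76 ± 0.57 (SD, n = 3) with a limma adjusted p of 0.0736. Its value on replicate 1 was far above the others, and it was called as risen under 8 of the 17 alternatives. HSPA4 had -0.66, -0.31 and -0.36, a mean of -0.45 ± 0.19 (SD, n = 3) with a limma adjusted p of 0.0555, and its other probe had -0.34, -0.31 and -0.24. The mitochondrial HSP70, HSPA9, was singled out after its values were seen, for lying next to the threshold. It had 0.39, 0.39 and 0.36, a mean of 0.38 ± 0.018 (SD, n = 3) and a limma adjusted p of 0.0501. Its ratio was nearly the same on every array, and it was called under 9 of the 17 alternatives.

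HSPA8, the constitutive cytosolic HSP70, was also singled out after its values were seen, because its replicates opposed each other. Its brightest probe had log2 ratios of 0.97, -0.25 and -0.66, which averaged 0.020 ± 0.85 (SD, n = 3), and the others had 1.16, -0.19 and -0.60, and 0.81, -0.22 and -0.68. On all 3 probes replicate 1 lay above 0 and replicates 2 and 3 below. The 95% interval of its mean ran from -0.78 to 0.82. The stress-inducible HSPA1A was not called, with 0.30, 0.10 and -0.059 and an interval of -0.18 to 0.41.

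DNAJ proteins deliver clients to HSP70 and trigger its ATPase. Of 5 accessions tested, DNAJB1 fell with loess and the other 4 were not called. DNAJB1, the main stress-inducible HSP40, had control log2 signals of 7.46, 7.72 and 9.22 and knockdown signals of 7.03, 7.15 and 8.80. The log2 ratios of -0.42, -0.57 and -0.42 were close together, with a mean of -0.47 ± 0.084 (SD, n = 3), that is 0.721 times control, and a limma adjusted p of 0.0342. With median centring its mean turned to 0.028. Among those not called, DNAJA1 had the lowest mean, with -0.10, -0.56 and -0.52 and a limma adjusted p of 0.0971, and DNAJA2 the highest, with 0.20, -0.057 and 0.051 and a mean of 0.064. The DNAJB6 accessions NM_005494 and NM_058246 had means of -0.053 and 0.031. DNAJA2 and NM_058246 were the 2 members not well above background in every control channel. The small heat shock protein HSPB1, which holds unfolded chains without ATP, was not called. Its 3 probes had means of -0.34, -0.35 and -0.29, and the brightest had -0.39, -0.77 and 0.13, below 0 on 2 of 3 arrays.

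HSPD1, the message of mitochondrial HSP60, rose, and that of its partner HSPE1 was not called in the reported setting. HSPD1 had control log2 signals of 12.28, 11.69 and 13.65 and knockdown signals of 12.88, 12.69 and 14.21, higher in knockdown on every array. Its log2 ratios of 0.60, 1.00 and 0.56 averaged 0.72 ± 0.24 (SD, n = 3), or 1.65-fold, with a limma adjusted p of 0.0254. A dimmer probe of HSPD1 had 0.25, 0.010 and 0.33, a mean of 0.19 that was not called. HSPE1, which encodes HSP10, had 0.65, 0.11 and 0.73, a mean of 0.50 ± 0.34 (SD, n = 3) with an interval of 0.11 to 0.89 and a limma adjusted p of 0.0806. It lay above 0 on 3 of 3 arrays, lowest on replicate 2, where HSPD1 was highest. HSPE1 was called as risen with normexp offset 0 (0.67, limma adjusted p of 0.0418) and without background correction (0.56, 0.0466). It was also called with median centring (1.44, limma adjusted p of 0.0149) and with centring on tested probes (1.12, 0.00294).

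The CCT chaperonin is assembled from different subunits encoded by separate genes, and all 8 tested here were above background throughout. With loess, CCT2 rose, CCT4 fell and 6 were not called. CCT2 had control log2 signals of 7.14, 7.85 and 9.52 and knockdown signals of 8.22, 8.55 and 10.19. Its log2 ratios of 1.08, 0.70 and 0.67 averaged 0.82 ± 0.23 (SD, n = 3), or 1.76-fold, with a limma adjusted p of 0.0197. CCT4 had control log2 signals of 11.58, 11.75 and 13.90 and knockdown signals of 11.18, 11.04 and 13.05. Relative to the loess curve, CCT4 was lower in knockdown on every array. Its log2 ratios of -0.40, -0.70 and -0.85 averaged -0.65 ± 0.23 (SD, n = 3). This was 0.636 times control, with a limma adjusted p of 0.0285. With median centring the CCT4 mean turned to 0.19, and it was called under 9 of the 17 alternatives.

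The gap between these CCT subunits was nearly constant. CCT2 minus CCT4 was 1.48, 1.40 and 1.52 on the log2 ratio scale, a mean of 1.47 ± 0.058 (SD, n = 3), with an exact sign-flip p of 0.25, 2-sided, and 0.25 after adjustment over the 4 pairs. This pair was chosen after its values were seen, as the called riser and the called faller. A gap of the same sign on every array was set by that choice, and 3 arrays allow no smaller p. Each of the pair is measured by a single probe. With loess, the 6 subunits not called lay close to 0, from CCT8 with 0.12, -0.36 and -0.37 and a mean of -0.20 to CCT6A with 0.40, -0.18 and 0.059 and a mean of 0.093. Their intervals were -0.55 to 0.14 and -0.26 to 0.45. CCT3, CCT5, CCT7 and TCP1, the subunit also called CCT1, lay between them. With median centring these 6 lay between 0.54 and 0.81, where TCP1 and CCT6A were called with adjusted p of 0.0385 and 0.0461, and with centring on tested probes TCP1 was called at 0.49. The median of the 8 subunits was 0.019 with loess.

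Of the 6 prefoldin subunits, PFDN1 rose, PFDN5 fell and 4 were not called. PFDN5 had control log2 signals of 11.04, 10.64 and 12.62 and knockdown signals of 9.95, 9.85 and 12.15. Its log2 ratios of -1.09, -0.79 and -0.47 averaged -0.78 ± 0.31 (SD, n = 3), that is 0.581 times control, with a limma adjusted p of 0.0272. Its other probe had -0.60, -0.41 and -0.42, a mean of -0.48, so both lay below 0 on 3 of 3 arrays. With median centring the PFDN5 mean was -0.0099, with an adjusted p of 0.977.

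PFDN1 had control log2 signals of 10.94, 10.62 and 12.59 and knockdown signals of 11.31, 11.13 and 13.09. The log2 ratios of 0.37, 0.52 and 0.49 averaged 0.46 ± 0.080 (SD, n = 3), or 1.38-fold, with a limma adjusted p of 0.0353. Its other tested probe went the opposite way, with -1.31, 0.030 and -0.12 and a mean of -0.47 that was not called and rested on replicate 1. The mean of both probes was -0.0024, so the rise of PFDN1 holds for its brightest probe and not for the accession as a whole. PFDN1 minus PFDN5 was 1.46, 1.31 and 0.97, a mean of 1.24 ± 0.25 (SD, n = 3), with the same exact sign-flip p of 0.25. This pair too was chosen after its values were seen. With the mean of tested probes PFDN1 stood at -0.0024 and PFDN5 at -0.63, a smaller gap. Of the subunits not called, PFDN6 had the lowest mean, with -1.56, -0.059 and -0.66 and a limma adjusted p of 0.125, and replicate 2 near 0. VBP1, the third subunit of the complex, had the highest, with 0.31, -0.26 and 0.029 and a mean of 0.026, and PFDN2 and PFDN4 lay between.

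**Figure D4:**
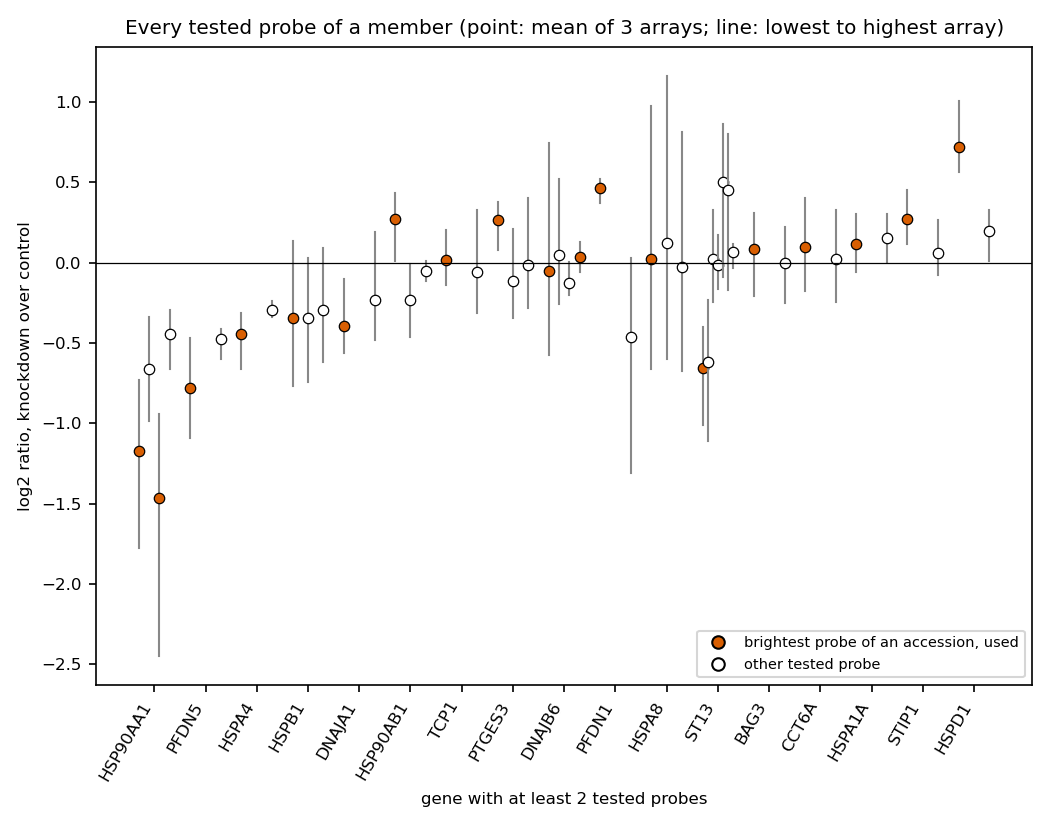
Log2 ratios (vertical axis) of every tested probe of the 17 genes with at least 2 tested probes (horizontal axis); points are means of 3 arrays, vertical lines run from the lowest to the highest array, and filled points are the probes used. All 4 HSP90AA1 probes lie below 0, while the probes of ST13 and PFDN1 lie on both sides.

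Over all members, 67 of 72 probes were tested. Of the 17 genes with at least 2 tested probes, 9 had all of them on 1 side of 0 and 8 on both. HSP90AA1, PFDN5, HSPD1, HSPA4, HSPB1, DNAJA1, HSPA1A, STIP1 and CCT6A were the 9. Those on both sides included ST13 and PFDN1 among the called genes, and otherwise BAG3, DNAJB6, HSP90AB1, HSPA8, PTGES3 and TCP1, which were not called. Probes of an accession are not replicates, and whether those of ST13, TCP1 and PTGES3 also match related sequences was not tested.

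A second list held 25 further chaperone and cochaperone accessions, of which 23 were tested. Of these, 2 rose and 2 fell, or 17.4%, where 19.2% of all accessions were called. TBCA, a tubulin-folding cofactor, rose on every array, with 1.67, 1.08 and 0.83, a mean of 1.19 ± 0.43 (SD, n = 3) and a limma adjusted p of 0.0192. HSBP1, a small protein that binds HSF1, rose with 1.13, 0.86 and 0.94, a mean of 0.98 ± 0.14 (SD, n = 3) and an adjusted p of 0.0148. The mean over its 2 tested probes was lower, at 0.50, with an adjusted p of 0.0299, so its dimmer probe lay nearer to 0 than the brightest. GRPEL1, the nucleotide exchange factor of mitochondrial HSP70, fell with -1.54, -1.16 and -0.72, a mean of -1.14 ± 0.41 (SD, n = 3) and an adjusted p of 0.0194. HSPB8, a small heat shock protein that works with BAG3, fell with -0.81, -1.09 and -0.49, a mean of -0.80 ± 0.30 (SD, n = 3) and an adjusted p of 0.0254. The means kept their sign under the alternatives that could turn it, 7 for HSBP1 and 6 for each of the others. None of the 4 was called without replicate 2, where 0 of all accessions were called. The adjusted p values were then 0.123 for TBCA, 0.116 for HSBP1, 0.127 for GRPEL1 and 0.137 for HSPB8. With median centring the falls were not called, at -0.51 for GRPEL1 and -0.29 for HSPB8. The other 19 tested were not called, among them the mitochondrial HSP90 TRAP1 at -0.015 and the factor HSF2 at -0.14. HSPA6 and HSPA4L did not pass the filter on dim probes.

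The calls of members changed with the centring of the arrays and with the number of arrays. When arrays were centred on their median instead of by loess, the median log2 ratio of all accessions moved from 0.010 to 0.31 and that of the members to 0.55, and 2766 accessions rose and 45 fell. The 8 fallen members all lay below that new median of all accessions, from -0.99 for NM_005348 to -0.12 for CCT4 relative to it. Centring on tested probes alone left 9 risen members and 1 fallen, beside 2448 risen and 852 fallen accessions. The fallen member was HSP90AA1 under NM_001017963. A fall is therefore given relative to RNAs of like brightness. With replicate 2 left out, limma called 0 members and 0 accessions, with 15 members and 3442 accessions at an unadjusted p under 0.05. The 12 adjusted p values then lay between 0.116 and 0.213, while the means stayed of similar size. That of HSF1 was 0.98, that of CCT2 0.87, that of HSPA14 -0.84, that of NM_005348 -1.72 and that of PFDN5 -0.78, and the mean of HSPD1 was 0.58 and that of STUB1 -0.62. Without replicate 1, 7 of the 12 were called, while the share of all accessions called went from 19.2% to 11.8%. The adjusted p was then 0.0966 for STUB1, 0.0749 for ST13, 0.0505 for PFDN5, 0.0692 for DNAJB1 and 0.0619 for PFDN1. Without replicate 3, 9 of the 12 were called and HSPH1 as well, beside 18.3% of all accessions. The adjusted p was then 0.0594 for CCT4, 0.0677 for DNAJB1 and 0.0921 for PFDN1. HSF1 and CCT2 were called under 16 of the 17 alternatives and HSPD1 under 15, HSPA14 under 14, HSP90AA1 under 14 and 13, STUB1 under 12, PFDN5 and DNAJB1 under 11, ST13 under 10, and CCT4 and PFDN1 under 9.

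**Figure D5:**
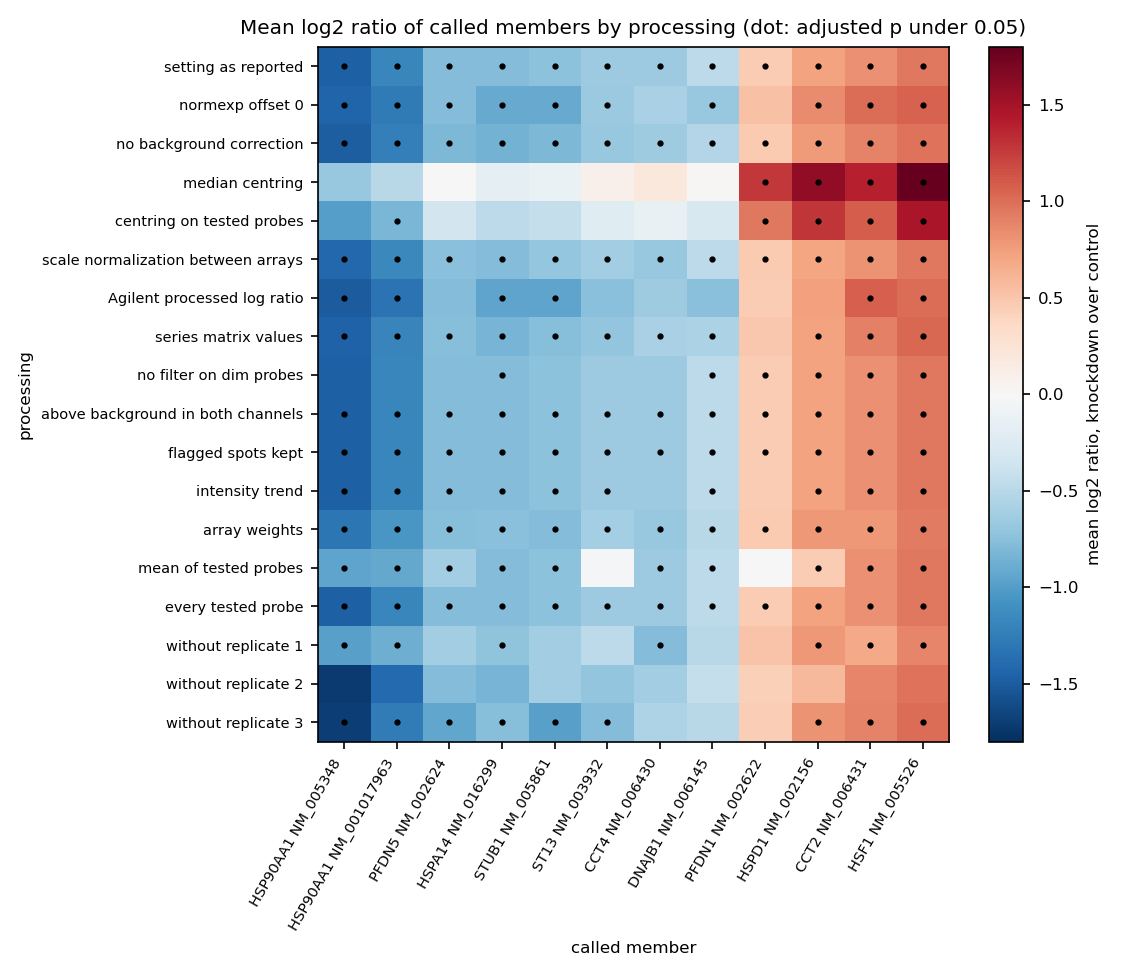
Mean log2 ratio (colour) of the 12 called accessions (horizontal axis) under the reported processing and 17 alternatives (vertical axis); dots mark an adjusted p under 0.05. The 4 risen members stay above 0 except PFDN1 with the mean of tested probes, and the fallen ones stay below 0 except CCT4, ST13 and DNAJB1 with median centring.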

How the data were processed

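Scanner tables of 3 two-colour Agilent arrays (design 014850) were used, in which the authors' spot intensity values are medians extracted with Agilent Feature Extraction 10.9.1.1, per the file headers. Feature Extraction 10.9 and limma appear in the submitters' processing notes. The deposited log10 ratio of the processed signals and the deposited log2 ratios of the series value table served as alternatives. For the latter, scale and direction are not stated, and they were taken as log2 ratios of knockdown over control. Each column correlated with its array's ratios (r = 0.975 to 0.984 across tested probes, slopes 1.14 to 1.18). Column medians were 0, 0.010 and 0.010. How they were centred stays unknown.

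Intensities were corrected with normexp (offset 50) and normalized with loess within arrays in R 4.3.3 with limma 3.58.1. An offset of 50 pulls dim ratios toward 0. Control spots had weight 0, and 142 to 150 flagged spots of 43376 were left out per array. Spots of a probe were averaged. Of 41000 probes, 18146 passed the filter, which asks that a probe be well above background in the control or the knockdown channel of all 3 arrays. The brightest tested probe of each accession entered lmFit and eBayes on an intercept, 2-sided, adjusted by Benjamini-Hochberg over 14528 accessions. Precision is limited by the number of arrays, and dye and knockdown cannot be told apart.

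Named with full values were all called members, the highest and lowest uncalled member of each role group, and RHA. HSPA9, HSPA8 and HSPA1A were added after their values were seen. The members and lists were chosen with earlier results of these data known. No sequences are printed, since no file used here holds them. The alternatives changed the background correction, normalization, values, filter, flags, variance model, weights, probes per accession and replicates.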

Additional observations from a re-analysis of the deposited data

How the results depend on the processing

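Under the alternatives that recomputed a ratio and could turn its sign, 6 or 7 per member, the 12 called members kept their sign in 74 of 78 values. Over all 17 they were called with it in 150 of 204. The signs that turned were those of CCT4 (0.19), ST13 (0.095) and DNAJB1 (0.028) with median centring and of PFDN1 (-0.0024) with the mean of tested probes. The other alternatives left the ratio as it was, or left out, weighted or rescaled arrays, which cannot turn a sign held on 3 of 3 arrays. At least 2-fold, 0 members rose and 2 fell, and 416 accessions rose and 309 fell. Median centring gave 11 risen and 0 fallen members, a member median of 0.55, and 2766 risen and 45 fallen accessions. Centring on tested probes gave 9 and 1, a member median of 0.23, and 2448 and 852 accessions. No background correction gave 7 risen and 8 fallen members, beside 1844 risen and 1735 fallen accessions. With Agilent's processed log ratio, 2 members rose and 4 fell, or 6 of 39. Beside them 2307 accessions rose and 1765 fell, or 28% of those tested, so the members' share lay below that of all accessions. Without the filter on dim probes there were 5 risen and 2 fallen members, or 7 of 39. Beside them were 829 risen and 821 fallen accessions, or 5.05% of the 32695 tested. Normexp with offset 0 gave 5 risen and 8 fallen members, beside 2314 risen and 1985 fallen accessions. The intensity trend gave 4 and 8 members, beside 2340 and 2126 accessions. Leaving out 1 replicate gave 0 to 4 risen and 0 to 6 fallen members, and 0 to 1316 risen and 0 to 1338 fallen accessions, with the 0 in each case without replicate 2. Beyond the fewer arrays and the number of accessions tested, the cause was not tested. Every fit paired knockdown with control within its array. Spread between the 3 arrays limits what can be called; of the uncalled members it was widest for HSPA8 (SD 0.85, beside a median of 0.26 over the members).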

Other observations

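Replicate 1 stood apart from replicates 2 and 3 for a group of members that the calls do not show. A total of 7 of the 39 members lay above 0 on replicate 1 and below 0 on both others. They were HSPA8, AHSA1, DNAJB6 (NM_005494) and the CCT subunits CCT3, CCT7, CCT8 and TCP1. That is 17.9% of the members, beside 6.53% of 14525 accessions with a value on every array. Among the 23 members above brightness percentile 80 it was 6, or 26.1%, beside 6.50% of the 2906 accessions there. Replicate 2 stood apart in either direction for 6 members, or 15.4%, beside 11.0% of accessions, and replicate 3 for 4, or 10.3%, beside 16.0%. Replicate 1 alone below 0 was seen for 1 member, or 2.56%, beside 7.88% of accessions. On replicate 1, HSPA8 had a log2 ratio of 0.97, DNAJB6 0.75 and CCT3 0.54, and on replicate 3 they had -0.66, -0.33 and -0.43. Some values lay near 0, as for TCP1 with 0.20, -0.14 and -0.0075. Of the other tested probes of this DNAJB6 accession, A_23_P215227 had 0.52, -0.26 and -0.11, and A_24_P63827 had -0.20, 0.00083 and -0.19. The signs are relative to the loess curve. With median centring the means of the 7 members lay between 0.44 and 0.83, and TCP1 was called. The median of all members was 0.16, -0.14 and -0.059 on replicates 1, 2 and 3, where all accessions had 0.0051, 0.021 and 0.017. The spread of the members (SD) was 0.82 on replicate 1 and 0.49 and 0.47 on the others, and that of all accessions was 0.63, 0.49 and 0.44. This pattern was noticed in the data and was not tested.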
